A study of Mus musculus with 21 samples.

Results

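The microRNAs described here are the dominant arms made by a pair of related gene clusters, miR-23a-3p, miR-27a-3p, miR-23b-3p, miR-27b-3p and miR-24-3p, together with miR-3074-5p, which is annotated on the strand opposite miR-24. They were taken by name from the count table and are 6 of its 1903 named microRNAs, of which 832 had a count in at least 1 library. All 6 were among the 561 microRNAs that passed a filter on low counts and entered the tests. The set was selected on its measured counts in the 4 groups, with its behaviour there already known. Its levels, fold changes and calls are therefore descriptions, and the p-values printed for it are the output of a fit over the 561 microRNAs and not independent evidence. The other arms of the same hairpins, 8 microRNAs, did not serve to choose the set and were tested in the same fit.

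Left ventricular myocardium was sequenced from 21 C57BL/6J mice, with 1 small RNA library per mouse. Sham surgery without drug was given to 5 mice (Sham), and 5 mice underwent TAC, a cardiac pressure-overload surgery, without drug (TAC). TAC was combined with sildenafil, an inhibitor of phosphodiesterase 5A, in 5 mice (TAC+PDE5A-I) and with PF-04449613, an inhibitor of phosphodiesterase 9A, in 6 mice (TAC+PDE9A-I), each for 4 weeks from 1 week after the surgery. Both enzymes degrade cyclic GMP, and no drug was given to sham-operated mice. Doses, ages and sexes are not stated in the labels.

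The miR-23, miR-27 and miR-24 microRNAs are cut from shared primary transcripts, so that a cluster delivers its members together before each is processed and turned over on its own. The sequence that pairs with target messages, the seed, is nearly the same in miR-23 and miR-27 and quite different in miR-24. In heart and vessels the family is known from endothelial cells, where it acts in the growth of new vessels, and from heart muscle. There, in rodents, miR-23a has been tied to hypertrophic growth through a muscle ubiquitin ligase, miR-27b to the fatty acid receptor PPARγ, and miR-24 to junctophilin, a protein that holds the membranes of excitation-contraction coupling together. No role is given here for miR-3074-5p.

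The mature sequences are shown because the members differ from each other by seed and, in one pair, by a single base. They are RefSeq's for mouse GRCm38.p6, 5′ to 3′, with the seed (bases 2 to 8) in capitals, and 5 of the 6 members had an entry, the exception being miR-23b-3p.
miR-23a-3p: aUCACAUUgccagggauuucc
miR-27a-3p: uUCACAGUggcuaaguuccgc
miR-27b-3p: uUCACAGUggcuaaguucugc
miR-24-3p: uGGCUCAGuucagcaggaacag
miR-3074-5p: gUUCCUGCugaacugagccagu
miR-27a-3p and miR-27b-3p share the seed UCACAGU and differ along their whole length at 1 position, C19U, counted from the 5′ end of miR-27a-3p. The seed of miR-23a-3p, UCACAUU, shares its first bases with that of the miR-27 pair. A stretch of 20 of the 22 bases of miR-3074-5p is complementary to miR-24-3p, since both are read from the same place on opposite strands. Reads of the near-identical a and b forms can be assigned to each other, and their assignment by the authors is not stated in the labels, so each value for 1 form of a pair carries that uncertainty.

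In GRCm38.p6 the first cluster lies on chromosome 8, plus strand, with miR-23a-3p at chr8:84208563-84208583, miR-27a-3p at chr8:84208727-84208747 and 1 copy of miR-24-3p, in hairpin Mir24-2, at chr8:84208875-84208896. The second lies on chromosome 13, plus strand, with the Mir23b hairpin at chr13:63300484-63300557, miR-27b-3p at chr13:63300760-63300780 and the other copy of miR-24-3p, in hairpin Mir24-1, at chr13:63301251-63301272. The chromosome 13 cluster sits inside the protein-coding gene Aopep, with the Mir23b hairpin in an intron and the hairpins of Mir27b and Mir24-1 overlapping annotated exons, and Fancc spans it on the other strand. On chromosome 8, Mir23a and Mir27a overlap no other annotated gene, and the end of Mir24-2 touches the long non-coding RNA gene Gm26532. miR-3074-5p was listed under the miR-24-1 locus when the set was drawn up, but RefSeq gives its sequence on the minus strand of both clusters, at chr13:63301249-63301270 and chr8:84208873-84208894. Counts of miR-24-3p and of miR-3074-5p therefore cannot be divided between the clusters, whereas the miR-23 and miR-27 forms and the minor arms of miR-24 can, within the limits of read assignment.

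Depth differed between groups. Sham libraries held 3766517 to 7490436 counts and TAC libraries 5373960 to 8497792, while TAC+PDE5A-I libraries held 1205417 to 3969716. Of the latter, replicates 3, 4 and 5 had under 2000000, as did TAC+PDE9A-I 5 with 1546318. On the first principal component of log2 CPM (counts scaled to a common library size), which took 50.3% of the variance, scores were 5.98 to 48.5 for TAC+PDE5A-I, 38.2 for TAC+PDE9A-I 5 and negative for all remaining libraries. The mean GC content of the counted microRNAs, weighted by count and limited to those with a sequence, was 46.0% to 48.6% in TAC+PDE5A-I and 47.2% in TAC+PDE9A-I 5, against 44.6% to 45.3% in all other libraries. These means rest on unlike parts of the counts. MicroRNAs with a sequence held 32.0% to 37.2% of counts in the libraries under 2000000 and 50.9% to 64.9% in the others. Depth, base composition and the sildenafil group thus move together and cannot be told apart by group. The members' differences between TAC+PDE5A-I and TAC are therefore given with and without the 4 libraries under 2000000 counts. The fit without them keeps only sildenafil replicates 1 and 2. Those replicates scored 14.5 and 5.98 on the first component and had a GC content of 46.0%, so they were not free of the shift. The 4 heart muscle markers (miR-499-5p, miR-208a-3p, miR-133a-3p and miR-1a-3p) were detected in every group, as the tissue label says. Of the neuronal markers, miR-124-3p was at 0 in every group. The other, miR-9-5p, had counts in every library, at 20.5 to 37.3 CPM in Sham and 8.28 to 17.9 CPM in TAC. The liver marker miR-122-5p had counts in some libraries of each group, at most 4.84 CPM. In whole tissue, fewer cells of a type and less of a microRNA per cell cannot be told apart.

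In the pressure-overloaded heart the 6 microRNAs took 9.06% ± 1.56 of all microRNA counts (SD, n = 5), against 4.85% ± 0.197 in Sham (n = 5). The TAC libraries ran from 7.57% to 11.3% and the Sham libraries from 4.65% to 5.13%, without overlap. The share was 3.72% ± 1.87 with sildenafil (n = 5) and 6.92% ± 2.36 with PF-04449613 (n = 6). In the sildenafil group it was 5.44%, 6.00%, 2.76%, 2.60% and 1.81% in replicates 1 to 5, so that the 3 shallow libraries held the low values, and TAC+PDE9A-I 5, at 2.71%, was the lowest of its group. These shares do not depend on scaling between libraries.

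Most of that share was miR-27b-3p. It made up 81.3% of the members' counts in Sham, 84.7% in TAC, 71.6% in TAC+PDE5A-I and 80.2% in TAC+PDE9A-I (means of the libraries), with a lowest library at 63.5% in TAC+PDE5A-I, and by mean level it ranked 7th of all microRNAs in Sham and 5th in TAC. The next members in Sham were miR-27a-3p, miR-23a-3p, miR-23b-3p and miR-24-3p, ranked 33rd, 39th, 40th and 52nd. miR-3074-5p stood far below them, at rank 194. The 5 mature forms with a sequence are 21 or 22 bases long, so their levels need no correction for length. No length was available for miR-23b-3p. Libraries of this kind also capture different sequences with different efficiency.

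**Figure D1:**
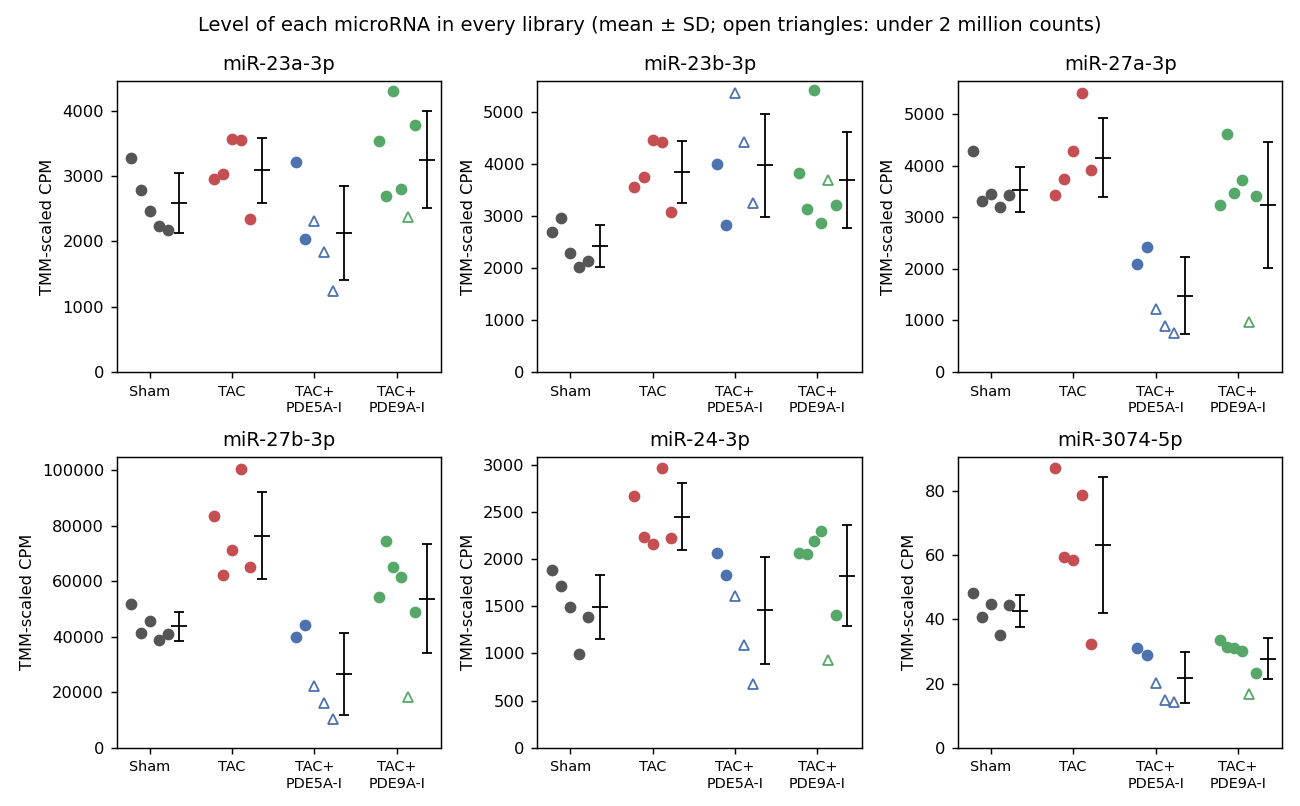
Level of each of the 6 microRNAs in all 21 libraries, as CPM scaled by TMM (trimmed mean of M values, y axis from 0), by group, with the group mean ± SD beside the points; open triangles are the 4 libraries under 2000000 counts. The TAC points of miR-23b-3p, miR-27b-3p and miR-24-3p lie above all Sham points, and the open triangles are the lowest points of their groups for miR-27a-3p, miR-27b-3p, miR-24-3p and miR-3074-5p but not for miR-23b-3p.

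The first comparison asked which microRNAs differ with pressure overload. None of the 6 members passed the test in TAC against Sham, where 2.32% of the 561 microRNAs were called in edgeR's quasi-likelihood test (Benjamini-Hochberg adjusted p below 0.05) and 2.14% were called higher. All 6 had positive log2 fold changes, with a median of 0.62 beside -0.08 over the 561. For 3 of the 6 (miR-23b-3p, miR-27b-3p and miR-24-3p) the TAC and Sham libraries did not overlap, beside 16.9% of the 561. At an unadjusted p under 0.05, 88 of the 561 passed, among them these 3 and miR-3074-5p. Without the 4 shallow libraries, which enter this comparison only through filter, scaling and the shared estimate of spread, those 3 passed, with log2 fold changes of 0.65 ± 0.18, 0.79 ± 0.15 and 0.70 ± 0.17 for miR-23b-3p, miR-27b-3p and miR-24-3p (adjusted p = 0.0294, 0.00618 and 0.0187 in edgeR), and 75 microRNAs of the table were called.

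The second comparison asked what sildenafil changes in the overloaded heart. Here 4 of the 6 members were called lower in TAC+PDE5A-I than in TAC, miR-27a-3p, miR-27b-3p, miR-24-3p and miR-3074-5p, and none was called higher. In that comparison 46.3% of the 561 were called, 24.8% lower and 21.6% higher, so many microRNAs of other families moved too. Over the 487 microRNAs with a sequence, its log2 fold changes had a Spearman correlation of 0.70 with GC content. That correlation was 0.69 between the drugs, 0.35 in TAC+PDE9A-I against TAC and 0.04 in TAC against Sham. The members' median log2 fold change was -1.12 and that over the 561 was -0.31. The same 4 did not overlap between the groups, beside 33.9% of the 561.

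The third comparison asked the same of the PDE9A inhibitor. No member was called in TAC+PDE9A-I against TAC, where 0% of the 561 were called, 16 passed an unadjusted p under 0.05, and DESeq2 called 1. That 1 was miR-3074-5p, which also had the smallest p of the 561 in edgeR. The members' median log2 fold change was -0.39, beside -0.04 over the 561, and no member's groups were free of overlap, as in 0% of the 561.

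The fourth comparison set the drugs against each other at the same treatment time, which is also the difference of their effects against the shared TAC libraries. miR-23a-3p, miR-27a-3p and miR-27b-3p were called lower in TAC+PDE5A-I than in TAC+PDE9A-I, 3 of 6, where 34.8% of the 561 were called, 19.6% lower and 15.2% higher. The members' median log2 difference was -0.47, beside -0.25 over the 561. No member was free of overlap between the drug groups, and 1.96% of the 561 were.

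**Figure D2:**
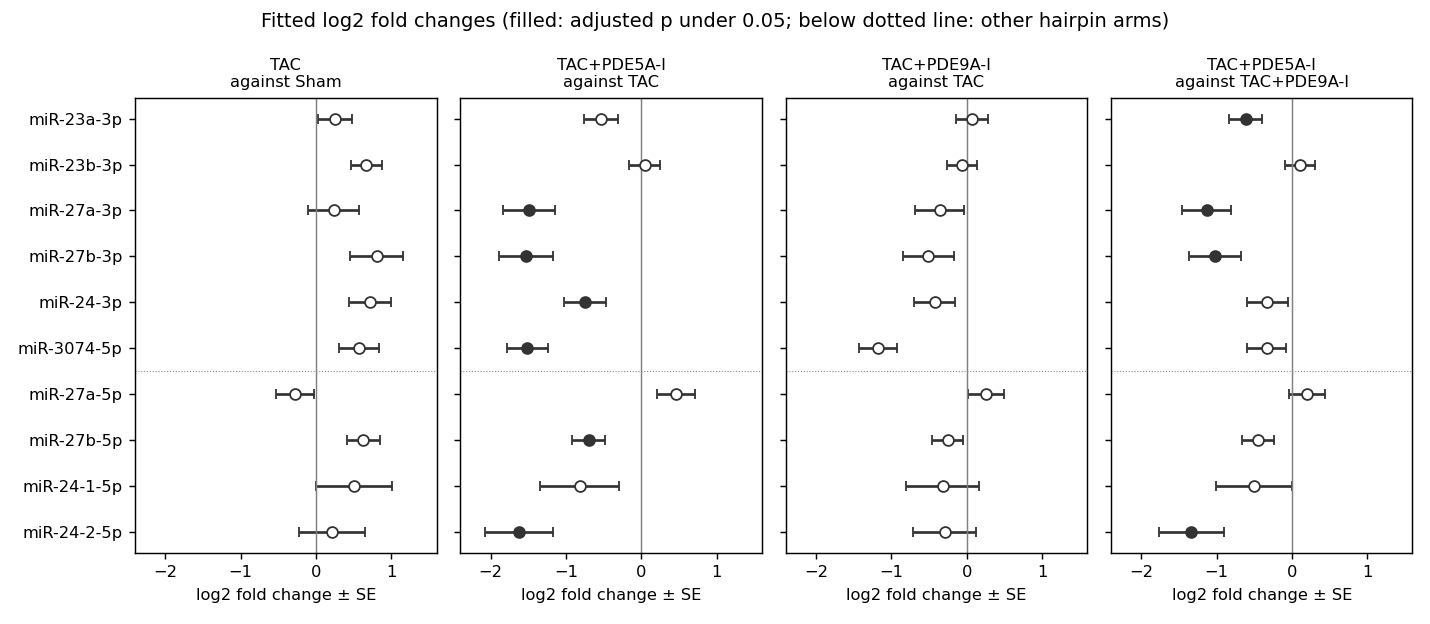
Fitted log2 fold changes with their standard errors (x axis) for the 6 microRNAs and, below the dotted line, the 4 other arms of at least 5 CPM, in the 4 comparisons; filled points had an adjusted p under 0.05. The filled points all lie left of 0 and all in comparisons that involve TAC+PDE5A-I, where miR-23b-3p stays near 0 while both miR-27 forms lie below -1.

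miR-27b-3p, the most abundant member, measured 51951, 41416, 45552, 38876 and 41092 CPM in the 5 Sham libraries and 83306, 62269, 71166, 100329 and 65010 CPM in the 5 TAC libraries. Every TAC library was above every Sham library. The fitted difference was 1.75-fold, a log2 fold change of 0.80 ± 0.35 (SE), which did not pass the test (adjusted p = 0.257 in edgeR). In a fit of these 2 groups alone, where the drug groups do not enter the estimate of spread, it was 0.94 ± 0.13 and passed (adjusted p = 0.000471), as it did with the GC correction (0.73 ± 0.19, adjusted p = 0.0316).

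With sildenafil, miR-27b-3p was at 39831, 44083, 22122, 16067 and 10318 CPM in replicates 1 to 5. All 5 lay below the lowest TAC library, and the first 2 were inside the Sham range. The level was 2.89-fold lower than in TAC, a log2 fold change of -1.53 ± 0.36 (adjusted p = 0.00307 in edgeR). Without the 4 libraries under 2000000 counts the difference was -0.85 ± 0.20 (adjusted p = 0.00748), and with a correction for GC content it was -0.95 ± 0.19 (adjusted p = 0.00212). The size of the change thus moved by more than 1.5 times with those libraries, and its call did not. The smaller fit rests on sildenafil replicates 1 and 2 only.

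In TAC+PDE9A-I, miR-27b-3p ran from 18181 CPM in replicate 5 to 74351, with a median of 57933, and overlapped both Sham and TAC. Its log2 fold change against TAC was -0.51 ± 0.34 (adjusted p = 0.991 in edgeR). Sildenafil against PF-04449613 gave -1.02 ± 0.34 (adjusted p = 0.0282), a call that was lost without the 4 shallow libraries (-0.55 ± 0.20, adjusted p = 0.0736) and when TAC+PDE5A-I 3, 4 or 5 or TAC+PDE9A-I 2, 3 or 4 alone was left out (0.0559 to 0.0844). In order of mean level the groups ran TAC+PDE5A-I (26484 ± 14805 CPM), Sham (43777 ± 5166), TAC+PDE9A-I (53746 ± 19514) and TAC (76416 ± 15629). Each neighbour in that order overlapped the next.

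miR-27a-3p, which shares the miR-27b seed, was at 4284, 3309, 3458, 3188 and 3421 CPM in Sham and at 3420, 3729, 4290, 5403 and 3912 CPM in TAC. These groups overlapped, and the log2 fold change of 0.23 ± 0.34 did not pass (adjusted p = 0.926 in edgeR). With sildenafil it was at 2094, 2429, 1218, 901 and 751 CPM, below every Sham, TAC and deeper TAC+PDE9A-I library. The level was 2.81-fold lower than in TAC (log2 fold change -1.49 ± 0.34, adjusted p = 0.00295), and still lower at -0.86 ± 0.19 without the 4 shallow libraries (adjusted p = 0.00539).

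With PF-04449613, miR-27a-3p ran from 970 CPM in replicate 5 to 4619, with a median of 3436. The 5 deeper libraries, at 3241 CPM or more, lay among the Sham and TAC libraries, and the log2 fold change against TAC was -0.36 ± 0.32 (adjusted p = 0.991 in edgeR). Between the drugs it was -1.13 ± 0.33 (adjusted p = 0.0151), and -0.72 ± 0.19 without the shallow libraries (adjusted p = 0.0179), the single member called between the drugs in that smaller fit. Leaving out TAC+PDE5A-I 3 or 4 alone ended the call (adjusted p = 0.0567 and 0.0545).

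miR-23b-3p, encoded a short way upstream of miR-27b on chromosome 13, was at 2697, 2972, 2299, 2016 and 2143 CPM in Sham and at 3551, 3751, 4455, 4428 and 3069 CPM in TAC. All TAC libraries were above all Sham libraries. The difference was 1.59-fold (log2 fold change 0.67 ± 0.21, adjusted p = 0.0951 in edgeR and 0.000689 in DESeq2). It passed in edgeR when any of TAC+PDE5A-I 1, 2, 3 or 5 or TAC+PDE9A-I 2 to 6 was left out (0.0196 to 0.0495).

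With sildenafil, miR-23b-3p was at 4007, 2829, 5366, 4414 and 3251 CPM, and 3 of these 5 libraries lay within the TAC range, with 1 above it and 1 below. The log2 fold change against TAC was 0.05 ± 0.20, with a 95% interval from -0.38 to 0.47 (adjusted p = 0.883 in edgeR). Its sign depended on the scaling, being -0.15 with relative-log-expression size factors and -0.16 without the 4 shallow libraries. With PF-04449613 the libraries ran from 2860 to 5426 CPM with a median of 3456, a log2 fold change of -0.06 ± 0.20 against TAC (adjusted p = 0.991). The difference between the drugs was 0.10 ± 0.20, with a 95% interval from -0.30 to 0.51 (adjusted p = 0.711).

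miR-23a-3p was at 3280, 2792, 2458, 2241 and 2165 CPM in Sham and at 2956, 3029, 3559, 3543 and 2345 CPM in TAC. The groups overlapped, and the log2 fold change was 0.25 ± 0.23 (adjusted p = 0.797 in edgeR). With sildenafil it was at 3210, 2032, 2316, 1836 and 1244 CPM, and replicate 1 lay inside the TAC range. That gave -0.54 ± 0.23 against TAC (adjusted p = 0.0595 in edgeR, 0.00135 in DESeq2), a difference that turned to 0.17 ± 0.19 with the GC correction. Without the 4 shallow libraries it was -0.22 ± 0.23 (adjusted p = 0.550). It passed when any of Sham 5, TAC 3 or 5, TAC+PDE5A-I 1 or 2 or TAC+PDE9A-I 2 to 5 was left out (adjusted p = 0.0052 to 0.0499).

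Under PF-04449613, miR-23a-3p ran from 2368 to 4299 CPM with a median of 3174 and did not differ detectably from TAC (0.07 ± 0.22, adjusted p = 0.991 in edgeR). Against the PDE9A inhibitor, sildenafil gave -0.61 ± 0.22 (adjusted p = 0.0379). That call was lost without the shallow libraries (-0.39 ± 0.23, adjusted p = 0.290) and with the GC correction (-0.13 ± 0.18, adjusted p = 0.690). Leaving out TAC+PDE5A-I 3, 4 or 5 or TAC+PDE9A-I 1, 3, 4 or 6 alone ended it too (0.0524 to 0.0870).

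miR-24-3p, the member made from both clusters, was at 1884, 1717, 1493, 995 and 1387 CPM in Sham and at 2665, 2234, 2162, 2972 and 2226 CPM in TAC. The groups did not overlap. The difference was 1.64-fold (log2 fold change 0.71 ± 0.28, adjusted p = 0.180 in edgeR), and in a fit of these 2 groups alone it was 0.85 ± 0.15 (adjusted p = 0.0023).

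With sildenafil, miR-24-3p was at 2069, 1837, 1610, 1087 and 681 CPM, all below the TAC libraries. The log2 fold change of -0.75 ± 0.28 passed (adjusted p = 0.0344 in edgeR). It was -0.31 ± 0.23 without the 4 shallow libraries and no longer passed (adjusted p = 0.381). Leaving out TAC 1, TAC 4, or TAC+PDE5A-I 3, 4 or 5 alone also ended the call, with adjusted p-values from 0.0502 to 0.0792. With PF-04449613 the level ran from 928 CPM in replicate 5 to 2304, with a median of 2061, and the log2 fold change of -0.42 ± 0.27 did not pass (adjusted p = 0.991). The difference between the drugs was -0.33 ± 0.27, with a 95% interval from -0.89 to 0.24 (adjusted p = 0.355). Over all alternatives run, the fit without the shallow libraries included, that difference was -0.71 to -0.050 and never passed.

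miR-3074-5p, from the opposite strand, was a low-level microRNA that rested on 19 to 644 counts a library. It was at 48.1, 40.8, 44.8, 35.1 and 44.3 CPM in Sham and at 87.0, 59.3, 58.6, 78.7 and 32.2 CPM in TAC. Of the TAC libraries 4 were above every Sham library, and TAC 5 was below them all. The log2 fold change was 0.57 ± 0.26 (adjusted p = 0.302 in edgeR), and in a fit of these 2 groups alone it was 0.70 ± 0.22 (adjusted p = 0.0493).

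Both drug groups were low in miR-3074-5p. Sildenafil libraries were at 31.1, 28.8, 20.3, 14.8 and 14.2 CPM, all below the Sham and TAC libraries, and the log2 fold change against TAC was -1.52 ± 0.27 (adjusted p = 0.000872 in edgeR). It was -1.05 ± 0.28 without the shallow libraries (adjusted p = 0.0157). PF-04449613 libraries ran from 16.9 to 33.6 CPM with a median of 30.6, again all below Sham, and only 1 of them, the highest, was above the lowest TAC library.

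The difference of miR-3074-5p from TAC under PF-04449613, -1.18 ± 0.25 on the log2 scale, had an unadjusted p of 0.000157 and an adjusted p of 0.0879 in edgeR. It passed in DESeq2 (adjusted p = 0.00379), with the GC correction (-1.13 ± 0.23, adjusted p = 0.0385), without the 4 shallow libraries (-1.05 ± 0.20, adjusted p = 0.0373) and without TAC 5 (-1.34, adjusted p = 0.0106). Over the other alternatives that kept all 21 libraries, the adjusted p was 0.0676 to 0.262. It was 0.569 in the fit of the 2 groups alone. Among the edgeR fits with 1 library left out, only that without TAC 5 passed, and the adjusted p ran up to 0.524. Between the drugs the difference was -0.34 ± 0.26, with a 95% interval from -0.88 to 0.20 (adjusted p = 0.316). Over all alternatives run, the fit without the shallow libraries included, that difference was -0.71 to -0.0077 and never passed.

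Ratios of counts within a library are free of scaling between libraries and show how the members moved against each other. They are given without a test, because they use the values that chose the set. miR-23b-3p over miR-23a-3p was 0.822 to 1.06 in Sham and 1.201 to 1.31 in TAC, so the balance of the miR-23 forms lay further towards the chromosome 13 form in every TAC library. miR-27b-3p over miR-27a-3p was 12.0 to 13.2 in Sham and 16.6 to 24.4 in TAC, again without overlap and again towards chromosome 13. With sildenafil it was 13.7 to 19.0 and with PF-04449613 14.4 to 18.8, above the Sham range in every drug-treated library. The miR-23b-3p over miR-23a-3p ratio was 1.25 to 2.61 with sildenafil, with 2.32, 2.40 and 2.61 in shallow replicates 3, 4 and 5. With PF-04449613 that ratio was 0.850 to 1.56, highest in shallow replicate 5. Replicates 4 and 6 of that group, at 1.02 and 0.850, lay inside the Sham range.

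Within the chromosome 13 cluster, miR-27b-3p over miR-23b-3p was 13.9 to 19.8 in Sham and 16.0 to 23.5 in TAC, which overlapped. With sildenafil it was 9.94, 15.6, 4.12, 3.64 and 3.17 in replicates 1 to 5, and it was 4.91 in TAC+PDE9A-I 5, against 12.0 to 23.7 in the deeper TAC+PDE9A-I libraries. The 4 libraries with the lowest ratios were thus the 4 shallow ones, from both drug groups. miR-27a-3p over miR-23a-3p, within the chromosome 8 cluster, was 1.19 to 1.58 in Sham and 1.16 to 1.67 in TAC, with 0.491 to 1.195 under sildenafil and 0.410 to 1.72 under PF-04449613. The GC content of the mature arms is 47.6% for miR-23a-3p and miR-27b-3p, 52.4% for miR-27a-3p and 54.5% for miR-24-3p and miR-3074-5p.

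miR-3074-5p stood at 2.93 ± 0.469 counts per 100 of miR-24-3p in Sham (SD, n = 5) and at 2.54 ± 0.666 in TAC (n = 5). It was 1.56 ± 0.317 with sildenafil (n = 5) and 1.56 ± 0.183 with PF-04449613 (n = 6). Every drug-treated library, shallow or deep, lay at 2.08 or below, under the lowest Sham library at 2.38, and TAC 5, at 1.45, lay with them rather than with the other TAC libraries at 2.65 to 3.26.

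**Figure D3:**
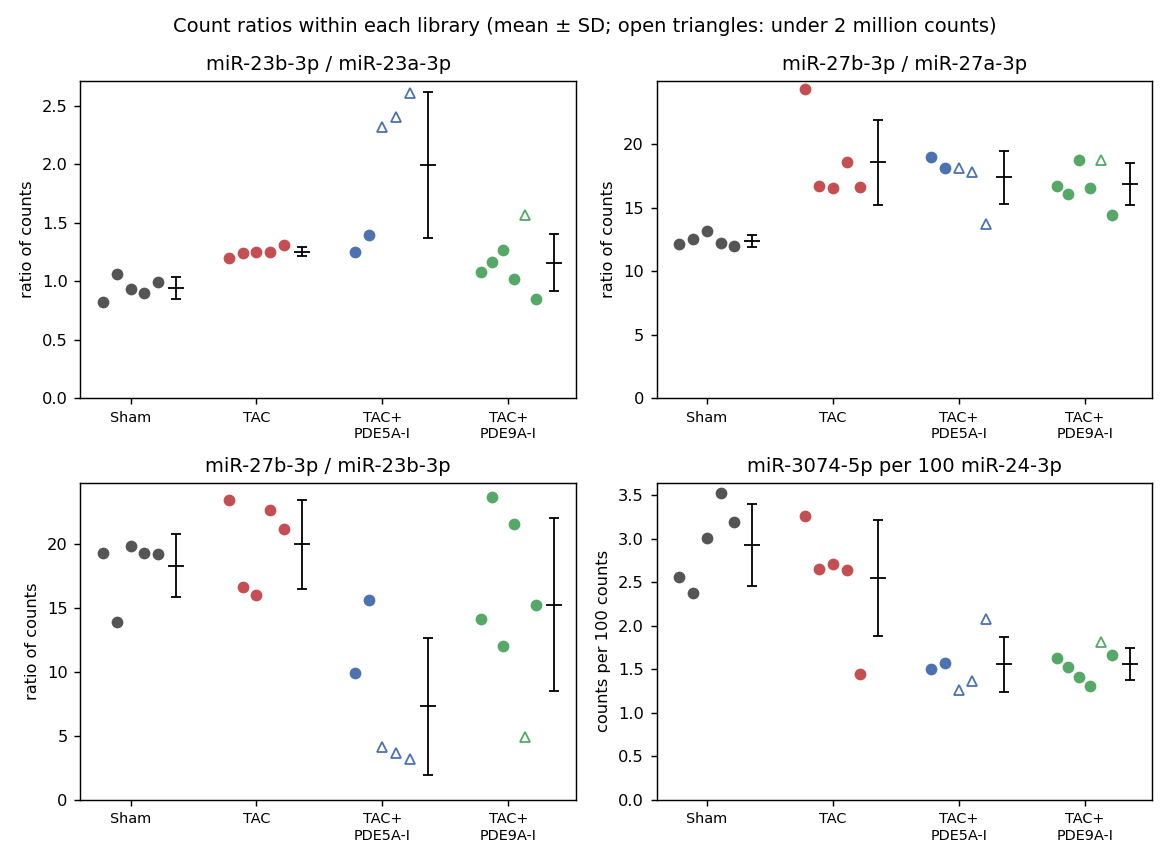
Ratios of counts within each library (y axes from 0) for 4 pairs of the microRNAs, by group, with mean ± SD; open triangles are the 4 libraries under 2000000 counts. Both b-over-a ratios are higher in all TAC libraries than in all Sham libraries, the open triangles are low for miR-27b-3p over miR-23b-3p in both drug groups, and miR-3074-5p per 100 miR-24-3p is at most 2.08 in every drug-treated library.

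The other arms of the hairpins were rarer than their partners. miR-24-2-5p, from chromosome 8, was the most abundant at 455 ± 55.6 CPM in Sham (n = 5), followed by miR-27b-5p at 57.9 ± 12.1, miR-27a-5p at 15.6 ± 4.19 and miR-24-1-5p, from chromosome 13, at 9.60 ± 1.67. miR-23a-5p and miR-23b-5p had means of 1.37 to 3.39 CPM in the 4 groups, with at least 1 library at 0 in each. miR-3074-1-3p had means of 2.54 to 4.94 CPM, and miR-3074-2-3p had counts in 6 of the 21 libraries. In edgeR none of the 8 was called in TAC against Sham or in TAC+PDE9A-I against TAC, and DESeq2 called 1 in the former, miR-27b-5p, and none in the latter. With sildenafil 2 of 8, miR-27b-5p and miR-24-2-5p, fell against TAC, where 24.8% of the 561 were called lower.

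The minor arms of miR-24 carry the cluster of origin that miR-24-3p itself does not. They share their first 16 bases.
miR-24-1-5p: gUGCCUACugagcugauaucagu
miR-24-2-5p: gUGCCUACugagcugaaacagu
miR-24-2-5p was at 281, 319, 120, 78.9 and 50.7 CPM with sildenafil and at 286, 472, 594, 782 and 497 CPM in TAC, overlapping through TAC 1. It fell by 1.63 on the log2 scale (SE 0.45, adjusted p = 0.00843 in edgeR). Without the 4 shallow libraries the difference was -0.80 ± 0.28 (adjusted p = 0.0557). Between the drugs it was -1.33 ± 0.44 (adjusted p = 0.0254), the single call among the 8 arms in that comparison in edgeR, and -0.73 ± 0.28 without the shallow libraries (adjusted p = 0.0924). That call also ended when TAC+PDE5A-I 3, 4 or 5 or TAC+PDE9A-I 2, 3, 4 or 6 alone was left out (0.0514 to 0.0804).

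miR-24-1-5p had 10.01, 13.7, 13.0, 18.9 and 12.6 CPM in TAC and 7.18, 10.5, 11.6, 5.39 and 3.73 CPM with sildenafil, from 5 to 47 counts a library. The log2 fold change of -0.82 ± 0.52 did not pass (adjusted p = 0.204 in edgeR). It passed in DESeq2 (-0.97, adjusted p = 0.0279) and in edgeR when TAC+PDE9A-I 5 was left out (-0.95 ± 0.26, adjusted p = 0.00705). Leaving out that library also made miR-24-1-5p a call between the drugs (-0.88 ± 0.26, adjusted p = 0.0106, against -0.50 ± 0.50 with it, adjusted p = 0.452). In TAC against Sham it was 0.51 ± 0.51 (adjusted p = 0.831) and passed in the fit of those 2 groups alone (0.64 ± 0.17, adjusted p = 0.0263).

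miR-24-2-5p over miR-24-1-5p was 38.1 to 53.4 in Sham and 28.5 to 45.6 in TAC. In sildenafil replicates 1 and 2 it was 39.2 and 30.4, and in the 3 shallow ones 10.3, 14.6 and 13.6, where the lower count was 5 to 16.

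miR-27b-5p, the partner of miR-27b-3p, had a log2 fold change of 0.63 ± 0.22 in TAC against Sham (adjusted p = 0.125 in edgeR, 0.0165 in DESeq2). It passed in edgeR in the fit of those 2 groups alone (0.76 ± 0.18, adjusted p = 0.0103) and without the 4 shallow libraries (0.61 ± 0.16, adjusted p = 0.0270). It was at 94.4, 76.5, 104, 105 and 67.9 CPM in TAC and 76.3, 64.6, 57.3, 47.2 and 29.1 CPM with sildenafil. It fell by 0.70 on the log2 scale (SE 0.22, adjusted p = 0.0149 in edgeR), beside the fall of 1.53 of miR-27b-3p. That call was lost without the 4 shallow libraries (-0.33 ± 0.22, adjusted p = 0.331), and the direction turned with the GC correction (0.30 ± 0.27). In the fit of TAC+PDE5A-I and TAC alone it was -0.68 ± 0.26 (adjusted p = 0.0538). Between the drugs the difference was -0.45 ± 0.21 (adjusted p = 0.0958 in edgeR, 0.00739 in DESeq2), and it passed in edgeR when TAC+PDE5A-I 1 or 2 was left out (0.0165 and 0.0320). miR-27a-5p, the partner of miR-27a-3p, had a log2 fold change of 0.46 ± 0.25 against TAC, opposite in sign to that of miR-27a-3p, and did not pass (adjusted p = 0.144). miR-27a-3p over miR-27a-5p was 234 to 481 in TAC and 121, 191, 73.1, 41.8 and 37.3 in the sildenafil replicates, on 23 to 58 counts of the minor arm.

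**Figure D4:**
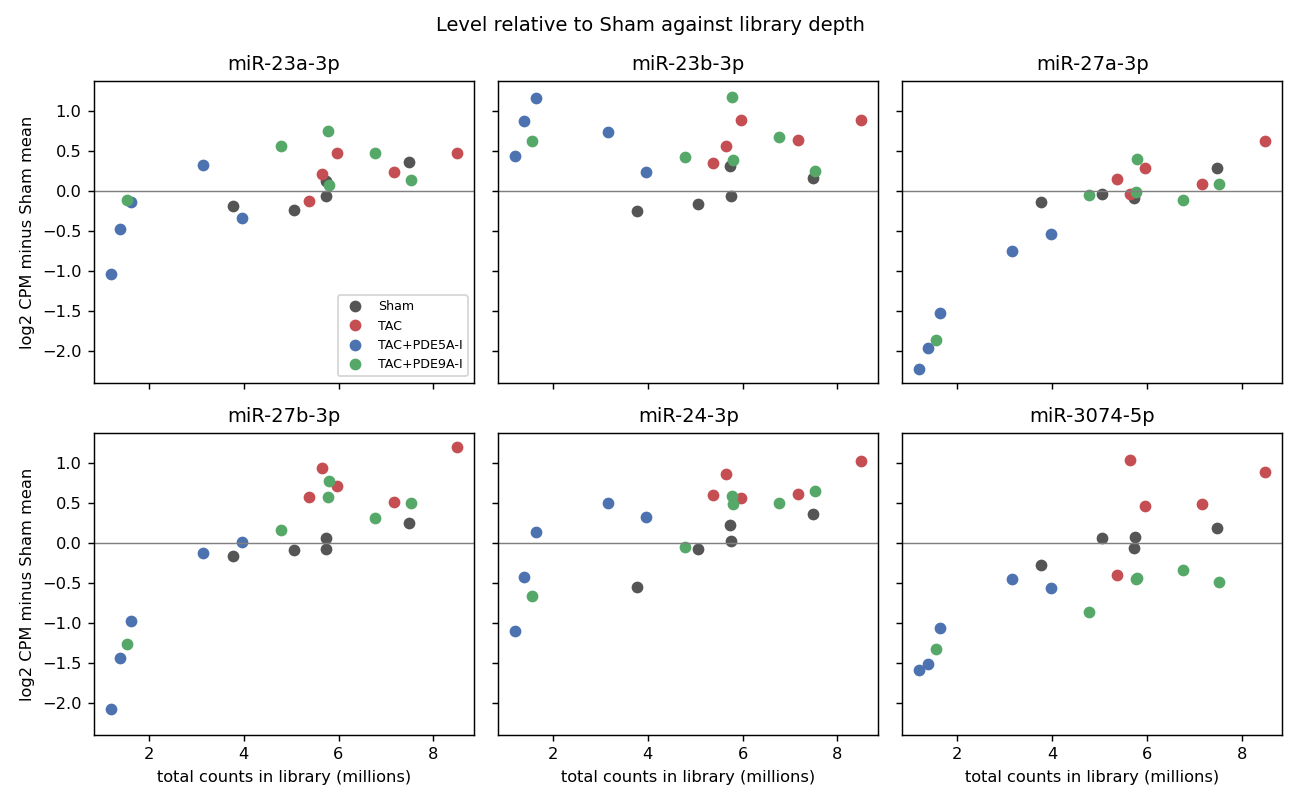
Level of each of the 6 microRNAs relative to the Sham mean (log2 CPM difference, y axis) against the total counts of the library (x axis), 1 point per library, coloured by group. For miR-27a-3p and miR-27b-3p the 4 libraries under 2000000 counts lie lowest whichever drug was given, for miR-23b-3p they lie above 0, and for miR-3074-5p the deep TAC+PDE9A-I libraries are also below 0.

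Marker microRNAs of other cell types moved with the sildenafil group as well, where 24.8% of the 561 were called lower and 21.6% higher against TAC. The summed ranges below include the shallow libraries. The 2 endothelial markers (miR-126a-3p and miR-126a-5p), detected in every group, summed to 25782.5 to 42973.9 CPM in TAC and 32703.8 to 49230.9 in Sham, but 999 to 15678 with sildenafil, and 1 of 2 was called lower. In TAC+PDE9A-I they summed to 3137 to 47697. The 2 smooth muscle markers (miR-143-3p and miR-145a-5p) summed to 70065 to 143384 CPM in TAC and 4830 to 43183 with sildenafil, with 1 lower and 1 higher. Of the 3 erythroid markers (miR-144-3p, miR-144-5p and miR-451a) all were called lower, at 445 to 1211 CPM summed in TAC and 23.1 to 417 with sildenafil. Of the 2 stromal markers 1 was lower, and of the 5 leukocyte markers (miR-142a-3p, miR-142a-5p, miR-150-5p, miR-155-5p and miR-223-3p) 3 were lower and 1 higher. The 4 heart muscle markers themselves went both ways, with 3 lower and 1 higher. Neuronal miR-9-5p was called lower here, and in TAC against Sham too. The part of these markers, of depth and of base composition in the members' differences was not tested. In TAC against Sham the markers that rose were the 2 of stroma (miR-199a-5p and miR-214-3p), from 224 to 286 CPM summed in Sham to 658 to 1207 in TAC, and their part in the members' values was not tested either.

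The microRNAs whose profile over the 21 libraries lay nearest to each member, by the root mean square difference of log2 CPM after the Sham mean was subtracted, were taken among those outside the set. In the 21 libraries the closest fellow member ranked from 11th to 69th of 302 for 5 members, and for miR-3074-5p it was miR-27a-3p, ranked 3rd (0.484). Without the 4 shallow libraries the closest fellow ranked 1st for miR-27b-3p, 2nd for miR-24-3p, 3rd for miR-23b-3p and 15th for miR-23a-3p. It ranked 7th for miR-3074-5p and 59th for miR-27a-3p. For miR-27a-3p the nearest were miR-26a-5p (0.250), miR-24-2-5p from its own cluster (0.294) and miR-322-3p (0.332), beside a median of 1.24 over 297 candidates. Without the 4 shallow libraries miR-24-2-5p was nearest to it (0.166). For miR-27b-3p the nearest in the 21 libraries were miR-434-5p (0.317), miR-411-5p (0.332) and miR-421-3p (0.378). Its cluster neighbour miR-23b-3p was 99th of 302 there. In the 17 deeper libraries miR-24-3p was nearest to miR-27b-3p (0.243), and miR-23b-3p was 13th of 302 (0.350). There miR-27b-5p and miR-24-1-5p, both cut from the chromosome 13 cluster, were among the closest 3 outside the set.

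The nearest profiles that follow are those over the 21 libraries, the shallow ones included. For miR-23b-3p they were miR-221-3p (0.237), miR-132-3p (0.299) and miR-195a-3p (0.320). For miR-23a-3p they were let-7i-5p (0.268), miR-1843b-5p (0.280) and miR-425-5p (0.295). miR-24-3p lay nearest to miR-100-5p (0.241), miR-99a-5p (0.262) and miR-99a-3p (0.314), which are of another family. The closest profiles to miR-3074-5p, those of miR-125b-2-3p (0.447), miR-1839-5p (0.472) and miR-148a-5p (0.499), were further off than those of the other members.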

How the data were processed

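The authors deposited unnormalised counts, whole numbers of reads for each mature microRNA in 21 libraries. The submitters' processing notes list Bowtie 1.1.1, DESeq 1.26.0, CASAVA 1.8.4 and cutadapt 1.8 with no roles. The build and annotation behind the counts were not given in the sources used here. Blank lines, 24055 of 25958, were left out. No value equals 1 and the smallest above 0 is 2. Each library is a mouse with its own ear tag.

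Counts were fitted in R 4.3.3 with edgeR 4.0.16: filterByExpr by group (561 microRNAs), TMM scaling, a robust quasi-likelihood fit of all 4 groups (17 residual degrees of freedom), F tests, and Benjamini-Hochberg adjustment over the 561 with a threshold of 0.05. Levels are TMM-scaled CPM as mean ± SD, log2 CPM used a prior count of 2, and ± after a log2 fold change is its SE. By counting error a count of 0 allows up to 3 counts, and such limits cover counting error only, since the reads carry no molecular identifiers. With no value of 1, and miR-3074-2-3p at 0 or at 40 counts or more, that limit need not hold for every 0 here. DESeq2 1.42.0, other scalings, filters and covariates, a GC correction (loess, span 0.75, for the 487 of 561 with a RefSeq sequence), summed pairs and left-out libraries were alternatives. Scripts were tested on simulated data. There the TAC against Sham test called 37.5% of changes of 1 on the log2 scale and 80.4% of changes of 2. The members' fitted differences in that comparison were all below 1. The rule for names took the 6 members, the other arms of their hairpins, the 3 nearest profiles of each member among microRNAs of at least 10 CPM, and marker microRNAs. Fold changes of arms are given from a mean of 5 CPM. The members and lists were chosen with earlier results of these data known.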

Additional observations from a re-analysis of the deposited data

Results flagged for a closer look

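Of 56 groups of 5 or 6 libraries examined for a value far from the others, 6 had one by Dixon's criterion. Chance gives about 1 in 20 for continuous values from a normal distribution, a rate that does not apply to rows with values at 0. miR-27a-3p in Sham 1 measured 4284 CPM, above the 3188 to 3458 CPM of the other Sham libraries. miR-27a-5p in TAC 3 measured 18.3 CPM, above 10.6 to 12.4 CPM in the other TAC libraries. TAC+PDE9A-I 5, a library of under 2000000 counts, had 0 CPM of miR-24-1-5p and 0 CPM of miR-3074-1-3p, while every other library of its group had counts of both. miR-3074-2-3p measured 8.94 CPM in TAC+PDE5A-I 2 and 8.98 CPM in TAC+PDE9A-I 1 and was at 0 in all other libraries of those groups. With all others at 0, any value above 0 meets the criterion.

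In the direct comparison of TAC+PDE5A-I with TAC+PDE9A-I in edgeR, 4 of the 14 microRNAs examined were called. Of all 561 microRNAs 34.8% were called there, so the count does not set these 14 apart. The differences on the log2 scale were -0.61 for miR-23a-3p, -1.13 for miR-27a-3p, -1.02 for miR-27b-3p and -1.33 for miR-24-2-5p, with adjusted p-values of 0.0379, 0.0151, 0.0282 and 0.0254. In the fit without the 4 libraries under 2000000 counts, which leaves 2 sildenafil libraries, they were -0.39, -0.72, -0.55 and -0.73, and miR-27a-3p alone of the 4 still passed.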

How the results depend on the processing

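Which calls the fit makes depended on the settings, and the causes were not tested. Members called in TAC against Sham numbered 0 in the main analysis. With relative-log-expression (RLE) size factors, scaling by total counts, DESeq2 or no filter on low counts they numbered 1, in the fit of the 2 groups alone 4, and without the 4 shallow libraries, an alternative added after seeing the data, 3. In TAC+PDE9A-I against TAC the member count of 0 became 1 with DESeq2 and without the shallow libraries. Between the drugs the 3 became 0 in the fit of the 2 groups alone, 1 with ear tag range as covariate and 1 without the shallow libraries. In TAC+PDE5A-I against TAC it was 3 to 5 in all of these.

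Over the whole table, calls in TAC against Sham were 13 and became 54 with DESeq2, 20 without the filter, 98 with 2 groups only, 4 with the ear tag range, 23 with the GC correction, 20 with the near-identical pairs summed and 75 without the shallow libraries. In TAC+PDE5A-I against TAC the 260 became 145 with the GC correction and 122 without the shallow libraries. In TAC+PDE9A-I against TAC the 0 became 1 with DESeq2, 1 with the GC correction and 2 without the shallow libraries. Between the drugs the 195 became 0 with 2 groups only, 115 with the ear tag range, 68 with the GC correction and 104 without the shallow libraries. The GC fit gives no member count, since miR-23b-3p had no GC value.

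Leaving out 1 library at a time, member calls ranged from 0 to 1 in TAC against Sham, 3 to 5 in TAC+PDE5A-I against TAC, 0 to 1 in TAC+PDE9A-I against TAC and 0 to 3 between the drugs. Calls over the table ranged from 3 to 32, 165 to 280, 0 to 1 and 72 to 252 in the same order. miR-27a-3p, miR-27b-3p and miR-3074-5p were called lower with sildenafil against TAC under every alternative run, left-out libraries included. The miR-23b-3p call in TAC against Sham was gained when any of 9 drug-group libraries was left out.

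Signs turned for differences near 0 and, with the GC correction, for larger ones, among them a called one, miR-27b-5p with sildenafil (-0.70 in the main analysis). miR-23b-3p with sildenafil against TAC was -0.15 with RLE factors, -0.15 with DESeq2, -0.20 without the filter, -0.16 without the shallow libraries, -0.30 summed with miR-23a-3p and -0.33 to 0.092 with 1 library left out. Between the drugs it was -0.091 with RLE factors, -0.091 with DESeq2, -0.071 without the filter, -0.061 with 2 groups only, -0.12 without the shallow libraries, -0.25 summed and -0.22 to 0.18 with 1 library left out. miR-23a-3p with PF-04449613 against TAC was -0.052 summed and -0.064 to 0.16 with 1 library left out, and with sildenafil 0.17 after GC correction, from -0.54. miR-27a-5p between the drugs was -0.084 to 0.28 with 1 library left out. With the GC correction miR-27b-5p was 0.30 with sildenafil and 0.13 with PF-04449613 against TAC and 0.17 between the drugs, from -0.70, -0.25 and -0.45, and miR-24-1-5p was 0.067 between the drugs, from -0.50.

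With RLE factors the median over the 561 log2 fold changes went from -0.31 to -0.46 in TAC+PDE5A-I against TAC, from -0.25 to -0.41 between the drugs, which lowered the share of calls that were higher from 43.6% to 28.4% in the latter. Scaling by total counts moved that median from -0.08 to 0.09 in TAC against Sham. Replicate numbers in the titles did not pair the mice: of 30 same-numbered pairs 7 had a correlation of deviations over 0.1 (-0.208 to 0.351), and 4 of 21 libraries correlated best with their own number. With the replicate block the table calls were 14, 264, 0 and 172 and the member calls 0, 5, 0 and 3, the added one being miR-23a-3p with sildenafil (-0.59, adjusted p = 0.0170). Alternatives for arms under 5 CPM were not run. miR-3074-5p, with as few as 19 counts, and the minor arms are limited by depth.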

Other observations

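miR-3074-2-3p, the other arm of the hairpin opposite Mir24-2, was at 0 in 15 of the 21 libraries, and each of the others held at least 40 counts of it. The counts were 66 in Sham 2, 76 in Sham 5, 109 in TAC 2, 185 in TAC 4, 40 in TAC+PDE5A-I 2 and 67 in TAC+PDE9A-I 1. No library had a value in between, although all of the deep libraries held more than 100 counts of miR-3074-5p from the same hairpins.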
